A study of Mus musculus with 7 samples.

Results

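Expression of 49 genes of ciliary transport, the ciliary base and the axoneme was examined in sorted mouse mammary cells. The genes were chosen by symbol: intraflagellar transport (IFT), Bardet-Biedl syndrome (BBS), tectonic, tektin and axonemal dynein genes, the kinesin genes Kif3a and Kif3b, the transcription factor genes Foxj1, Rfx2 and Rfx3, and Spag6 and Spef2. They were 49 of the 17096 genes that had a probe set assigned to a single gene. Arl13b, also named by the rule, had no such probe set and was not analysed here. Expression was read on 7 Affymetrix arrays as probe set intensity, given below on the log2 scale. Adult luminal cells (2 arrays) were YFP+ cells of K8CREERT2/RosaYFP mice, and adult basal cells (2 arrays) were YFP+ cells of K5CREERT2/RosaYFP mice, both taken 8 weeks after tamoxifen. In these mice the keratin 8 or keratin 5 promoter drives a tamoxifen-inducible Cre, so that YFP marks cells in which the promoter was active at induction, and their descendants. Embryonic cells (3 arrays of 2000, 2000 and 813 cells) were CD49fHi Lgr5Hi cells of Lgr5-IRES-GFP female embryos at embryonic day 14, each array a litter's pool of females. The adult arrays are marked in the labels as a reanalysis, and their tissue label reads as embryonic gland while their other labels give the adult lineages used here. The animals behind the adult replicates are not described, and p-values therefore cover array-to-array spread alone, which may be technical.

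A cilium is a microtubule axoneme that grows from a basal body. IFT trains carry cargo along it, outward with the kinesin-2 motor and back with cytoplasmic dynein 2, and the BBS coat complex moves membrane proteins in and out. Most vertebrate cells can form a single immotile primary cilium, which houses Hedgehog signalling, while motile cilia add axonemal dynein arms, radial spokes and a central pair under the control of Foxj1 and RFX factors. Primary cilia have been described on mammary epithelial and stromal cells.

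RFX factors bind a paired sequence called the X-box, and the promoters of the chosen genes were searched for its letters, a feature that the choice of genes did not use. RefSeq promoters (GRCm38.p6, from 250 bases before to 50 after each listed start) were found for 45 of the 49 genes, 48 promoters in all; Foxj1, Ift122, Ift80 and Ift81 were not matched. The first form searched was GTTNCN followed, after 0 to 3 further bases, by NGNAAC; the second was GTNNCC followed, after 0 to 3 bases, by GGNNAC. Each form is its own reverse complement, so both strands are covered, and the forms can overlap at one site. The first form occurred in 12 of 48 promoters (25.0%), against 2.69% of the 32851 promoters in the table. The second occurred in 10 (20.8%), against 3.86%, and either form in 17 (35.4%), against 5.64%. Over the 17064 promoters of genes on the array the shares were 2.84%, 4.62% and 6.46%. The same Tekt2 site is counted under different listed starts. The first form was settled after the Dnaic1 promoter, which is among the 12, had been seen, and these shares are a description with no test. Sites of 8 members are printed 5′ to 3′ with 8 flanking bases on each side. They show the near-palindrome in genes of several roles, and the matched letters are in capitals.
Dnaic1: gcctgtcgGTTGCTGGGTAACcgcgtcag
Dnaic2: cggccaggGTTGCTAGGCAACtggtaaac
Dnah7a: gccagtttGTTGCTTAGCAACgaatcgac
Tekt2: agggggcgGTTGCTCGGCAACcagagccg
Ift22: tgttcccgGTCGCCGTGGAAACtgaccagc
Ift57: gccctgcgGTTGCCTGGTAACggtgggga
Bbs7: gcgccccgGTTGCCTTGGAAACcggccagc
Tctn3: tcccagcgGTTGCCAGGTAACgggaacca
The Dnaic1 site lies at chr4:41569775-41569787 on the plus strand, and its first base is 19 bases before the listed start. The Ift22 site lies at chr5:136908117-136908130 on the plus strand, 33 bases before the start, and Ift22 has another match at chr5:136908087-136908100. The Dnaic2 site is at chr11:114727386-114727398 and the Ift57 site at chr16:49699234-49699246, both on the plus strand. On the minus strand are those of Dnah7a (chr1:53706829-53706841), Tekt2 (chr4:126325705-126325717), Bbs7 (chr3:36613497-36613510) and Tctn3 (chr19:40612359-40612371). Ift43 had no match in this window. Of the 16 genes with a match, 6 had an adult mean above the background level defined below and 2 passed the luminal against basal test, Dnaic1 and Ift22. Of the 29 without a match, 16 lay above background and 1 passed. Over all 17096 genes, 7984 lay above background and 5.49% passed. These counts are small, and a link between a match and expression was not tested.

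The background level was set at 5.91. It is the 95th percentile over 154 probe sets of 113 genes of other organs, each by its mean over the 7 arrays. The 49 genes were read by their brightest probe set, a unit unlike the single probe sets behind this level. By the mean of the 4 adult arrays, 24 of the 49 genes lay above it, as did 7984 of all 17096 genes. Values below it, and differences between such values, do not show that a gene is silent or unchanged.

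**Figure D1:**
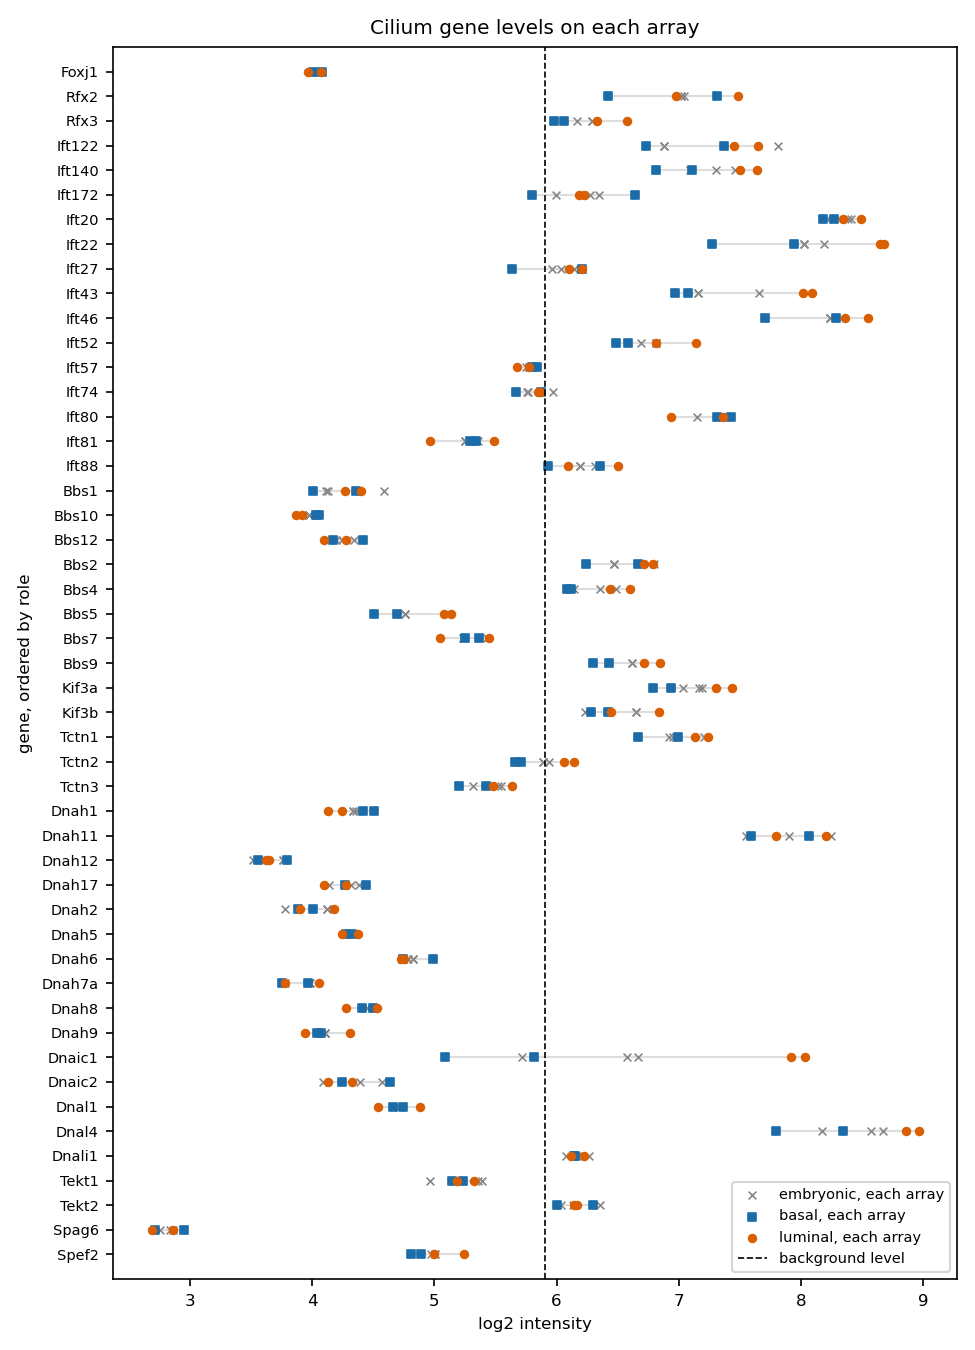
Log2 intensity (horizontal axis) of each of the 49 genes (vertical axis, ordered by role) on every array; circles are luminal, squares basal and crosses embryonic arrays, and the dashed line is the background level of 5.91. Dnaic1 is the gene whose luminal circles stand farthest from its basal squares, while 9 of the 10 dynein heavy chain genes lie left of the line.

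Before the results, the libraries were checked. Median log2 intensity ran from 5.05 to 5.08 over the 7 arrays, and 7702 to 8082 genes lay above background on each. Of 9 measured basal markers 8 passed as higher in basal cells, Krt5 among them, and of 10 luminal markers 5 passed as higher in luminal cells; Krt8, whose promoter drove the luminal label, did not (0.40 ± 0.15, limma adjusted p = 0.121). Embryonic columns lay near the adult mean, with embryonic minus adult differences of SD 0.089 where luminal minus basal had 0.49, and embryonic replicates 1 and 2 were identical for 37.6% of probe sets. Embryonic values are therefore printed as levels only. Markers of fibroblasts (median difference -0.91, 4 of 14 higher in basal) and endothelium (median -1.27) lay on the basal side. None of 13 endothelial markers passed, while 1 had a limma adjusted p under 0.05 and 10 an unadjusted p under 0.05. Mitotic genes lay on the luminal side (median 0.67, 6 of 19 higher in luminal). Summed marker intensity on the log2 scale was 11.67 to 12.33 in luminal against 12.98 to 13.23 in basal arrays for fibroblasts, 8.92 to 9.72 against 10.25 to 10.93 for endothelium, and 10.94 to 11.40 against 10.28 to 10.47 for mitosis. On all 4 adult arrays 4 of 14 fibroblast, 3 of 13 endothelial and 4 of 19 mitotic markers were below background. The part of these other signals in the results below was not tested.

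Luminal and basal cells differed in 1 axonemal gene, Dnaic1, and by about the 2-fold minimum in 2 transport genes, Ift22 and Ift43, all higher in luminal cells. These 3 of 49 genes passed the test used throughout, limma with a Benjamini-Hochberg adjusted p under 0.05 over all 17096 genes and a difference of at least 2-fold. Genes that failed one of these are described as not passing. No gene of the set passed as higher in basal cells. The share of 6.12% stands beside a background of 5.49% of all genes called in either direction and 2.87% called as higher in luminal cells (490 genes, with 449 or 2.63% higher in basal cells; 362 and 515 after quantile normalization). A count of 3 is too near this background to read as a result about the set. An unadjusted p under 0.05 was found in limma for 15 of the 49 genes and for 5352 of all 17096 genes. Counts of this kind for roles and lists are to be read beside that share. Under quantile normalization, median centring or an intensity offset of 16 before log2, Dnaic1 passed alone. No gene of the set passed without luminal replicate 1, luminal replicate 2 or basal replicate 1, and 2 did without basal replicate 2.

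Over all 49 genes the median difference, luminal minus basal, was 0.15, against 0.02 over all genes, and 34 of 49 (69.4%) differences were above 0, against 53.9% of all genes. Both luminal arrays lay above both basal arrays in 20 genes (40.8%), where 33.9% of all genes did so. The reverse order was seen in 3 genes (6.12%), against 25.3% of all genes. Of the 24 genes above background, 22 had a difference above 0 (62.2% of all genes above background did), Ift172 and Ift80 being the others. In 16 of the 24 (66.7%) both luminal arrays lay above both basal arrays, against 46.5% of all genes above background. The 3 that passed were 12.5% of the 24, where 9.04% of all genes above background passed in either direction and 4.55% as higher in luminal cells. A gene can lie above background through one lineage alone, so these counts are given as a description. The lowest difference in the set was -0.27, for Dnah1, so that none lay as far on the basal side as 2-fold.

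**Figure D2:**
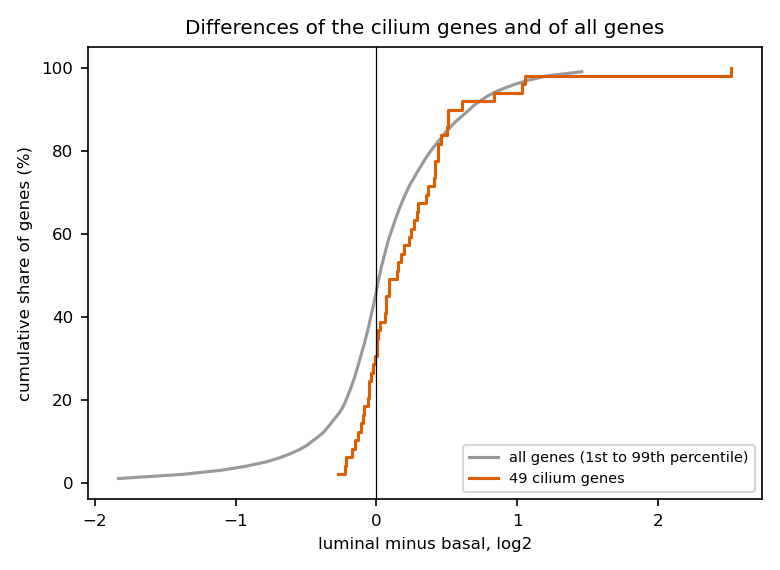
Cumulative share of genes (vertical axis, percent) by luminal minus basal log2 difference (horizontal axis) for the 49 cilium genes and for all genes between their 1st and 99th percentiles. The cilium genes run from -0.27 to 2.52 with a median of 0.15, and lack the long basal side of the curve for all genes.

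Dnaic1 encodes an intermediate chain of the outer dynein arm, the motor complex that drives ciliary beating. Its log2 intensity was 8.03 and 7.92 on the luminal arrays, 5.09 and 5.82 on the basal arrays and 6.67, 6.57 and 5.72 on the embryonic arrays. Both luminal arrays lay well above both basal arrays, which were below background. The difference was 2.52 ± 0.37 (SE for 2 against 2 arrays with spread pooled over all 7, limma adjusted p = 0.0161), or 5.75-fold as measured. With each basal array set to the background level, luminal cells were at least 4.19-fold higher. The probe set is of a type that may cross-hybridise; the gene's other probe set gave 8.07 and 7.93 in luminal against 5.02 and 5.91 in basal arrays, with a difference of 2.54. The difference ran from 2.16 without basal replicate 1 to 2.89 without basal replicate 2.

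In the RefSeq gene table Dnaic1 overlaps Enho, which encodes a secreted peptide. Enho had a probe set of its own at 8.26 and 8.55 in luminal and 6.92 and 7.79 in basal arrays, 1.05 ± 0.34 higher in luminal cells without passing (limma adjusted p = 0.0913). The genes differed in the same direction, and whether any Enho transcript contributes to the Dnaic1 signal was not tested.

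**Figure D3:**
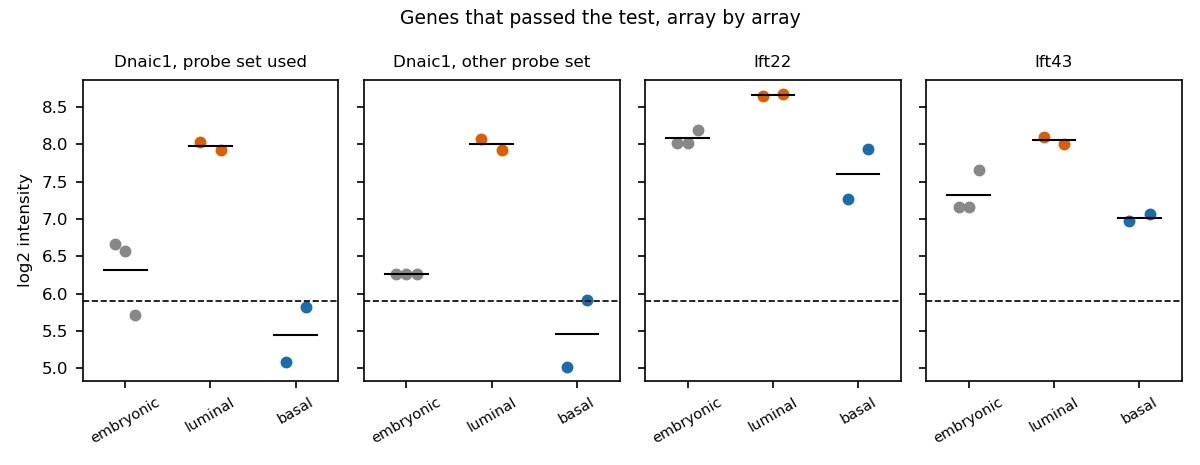
Log2 intensity (vertical axis) on each array of the genes that passed the test, with both probe sets of Dnaic1; points are arrays, bars group means and the dashed line the background level of 5.91. Luminal Dnaic1 lies near 8 by both probe sets, and luminal Ift22 and Ift43 lie above both of their basal arrays.

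No other gene of the motile axoneme in the set passed. Most of them lay below background, where no statement on a difference can be made. Of 10 dynein heavy chain genes, which encode the motor subunits of the arms, none passed in limma and 1, Dnah1, had an unadjusted p under 0.05. Their median difference was -0.02, and 9 of the 10 had an adult mean below background. Dnah6 read 4.73 and 4.75 in luminal and 4.75 and 4.99 in basal arrays (difference -0.13), and Dnah8 4.53 and 4.28 against 4.50 and 4.41 (-0.05). The other 7 below background (Dnah1, Dnah12, Dnah17, Dnah2, Dnah5, Dnah7a and Dnah9) had adult means from 3.66 to 4.32 and differences from -0.27 to 0.09.

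Dnah11, an outer arm heavy chain gene, was the exception in level, at 7.80 and 8.20 in luminal, 7.59 and 8.06 in basal and 7.55, 7.90 and 8.25 in embryonic arrays. The lineages overlapped, and the difference was 0.17 ± 0.27 (limma adjusted p = 0.722). The gene table places Cdca7l over part of Dnah11, and the probe set of Cdca7l read 8.04 and 8.34 in luminal, 7.53 and 8.26 in basal and 7.60, 8.02 and 8.43 in embryonic arrays. Replicate 2 was the higher of the 2 arrays in each adult lineage for both genes. Of all 7984 genes above background, it was the higher luminal array in 3055 and the higher basal array in 5084. Probe positions were not used here, so signal of the 2 genes cannot be told apart.

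Among the other dynein chains, Dnal4, a light chain gene, read 8.96 and 8.86 in luminal against 7.80 and 8.35 in basal arrays. The arrays did not overlap, and at 0.84 ± 0.23 the gene missed both criteria (limma adjusted p = 0.0623). Dnali1, an inner arm light chain gene, was level at 6.22 and 6.12 against 6.15 and 6.14 (0.02 ± 0.10). In the gene table Dnali1 overlaps Gnl2, which read 8.92 and 8.92 in luminal and 9.10 and 8.80 in basal arrays. Whether Gnl2 contributes to the Dnali1 signal was not tested. Dnal1, a light chain gene of the outer arm, lay below background (4.88 and 4.54 against 4.74 and 4.67). Dnaic2, whose product pairs with that of Dnaic1 in the outer arm, was below background in every array, at 4.13 and 4.32 in luminal and 4.63 and 4.25 in basal cells (-0.22 ± 0.20, limma adjusted p = 0.518). At that level no statement on a difference in Dnaic2 can be made.

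Tektin and central pair genes did not pass either. Tekt2, for a filament protein of axonemal doublets, read 6.17 and 6.14 in luminal arrays, between its basal values of 6.004 and 6.296 (difference 0.00 ± 0.15). Tekt1 lay below background with a difference of 0.07. Spag6, for a central pair protein, lay at 2.69 and 2.87 against 2.95 and 2.71. Spef2, also of the central pair, lay at 5.25 and 4.99 against 4.81 and 4.89 (0.27 ± 0.11, limma adjusted p = 0.148).

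Of the transcription factor genes, Foxj1, the main regulator of motile ciliogenesis, was below background in all arrays: 4.07 and 3.97 in luminal, 4.08 and 4.01 in basal, and 4.06, 4.06 and 3.99 in embryonic arrays. Rfx3 read 6.33 and 6.58 in luminal and 6.06 and 5.98 in basal arrays. The lineages did not overlap, and Rfx3 at 0.44 ± 0.11 was not among the genes that passed (limma adjusted p = 0.0532). Rfx2 varied more between replicates than between lineages, at 7.49 and 6.98 against 7.31 and 6.42 (0.37 ± 0.30).

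Of 14 IFT genes, 11 lay above background and 2 passed. Over all 17096 genes 7984 lay above background. In either direction 5.49% of all genes and 9.04% of those above background passed. Ift22, for a small GTPase-like subunit of the IFT-B complex, read 8.65 and 8.68 in luminal, 7.27 and 7.94 in basal and 8.02, 8.02 and 8.19 in embryonic arrays. The luminal arrays agreed closely and the basal arrays differed by 0.67. The difference was 1.06 ± 0.21 (limma adjusted p = 0.0297), and was 0.72 without basal replicate 1 and 1.39 without basal replicate 2. Ift43, for a subunit of the IFT-A complex of return transport, read 8.09 and 8.01 in luminal, 6.97 and 7.07 in basal and 7.16, 7.16 and 7.66 in embryonic arrays. The replicates of each adult lineage lay close together, and the difference was 1.03 ± 0.18 (limma adjusted p = 0.0232).

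All 3 IFT-A genes of the set had both luminal arrays above both basal arrays, an order seen in 46.5% of all genes above background. Ift140, for a core subunit, read 7.64 and 7.50 against 6.81 and 7.11 (0.61 ± 0.16, limma adjusted p = 0.0542), and Ift122 7.65 and 7.45 against 6.73 and 7.37 (0.50 ± 0.36, limma adjusted p = 0.403). Neither passed. Genes of other IFT-A subunits, from a list of related genes, lay below background: Wdr19 differed by 0.21, Ttc21b by 0.14 and Wdr35 by -0.03. Whether IFT-A genes differed from IFT-B genes was not tested.

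The IFT-B genes other than Ift22 were mixed, with a median difference of 0.12 over 10 genes and 6 of 10 above 0. Ift46, a core subunit gene, read 8.55 and 8.36 against 7.70 and 8.28 (0.46 ± 0.19), and Ift20, for a subunit also found at the Golgi, 8.49 and 8.34 against 8.18 and 8.27 (0.19 ± 0.11). Ift52 differed by 0.44, Ift27 by 0.23, Ift88 by 0.16, Ift74 by 0.09 and Ift172 by -0.01. Ift81 (-0.09), Ift57 (-0.09) and Ift80 (-0.22) had differences below 0, and those of Ift81 and Ift80 turned above 0 with the second highest probe set. Ift74, Ift57 and Ift81 were below background, and none of the 10 passed in limma, with 2 at an unadjusted p under 0.05.

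Neither kinesin-2 gene passed. Kif3a, a motor subunit gene of outward transport, read 7.44 and 7.30 in luminal and 6.78 and 6.93 in basal arrays. The difference of 0.51 ± 0.11 had a limma adjusted p = 0.0326 but was 1.42-fold, under the 2-fold minimum. Its other 3 probe sets gave 0.57, 0.10 and 0.47. Kif3b, for its partner subunit, read 6.84 and 6.45 against 6.42 and 6.28 (0.29 ± 0.19, limma adjusted p = 0.367).

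At the transition zone, the gate at the ciliary base, the tectonic genes each had both luminal arrays above both basal arrays. That order was seen in 33.9% of all genes. Tctn2 read 6.14 and 6.06 against 5.71 and 5.66, with basal cells below background (0.42 ± 0.08, limma adjusted p = 0.0285, 1.34-fold). Tctn1 read 7.24 and 7.13 against 6.67 and 6.99 (0.36 ± 0.15), and Tctn3 5.48 and 5.64 against 5.21 and 5.42, below background (0.25 ± 0.13). No tectonic gene reached 2-fold. Without a fold minimum, 5 of the 49 genes (10.2%) had an adjusted p under 0.05 on the luminal side, the 3 above with Kif3a and Tctn2, against 8.21% of all genes. For Kif3a and Tctn2 this depended on the setting. Their limma adjusted p was 0.032 and 0.047 with median centring, and 0.031 and 0.022 with the offset. It was 0.074 and 0.051 with quantile normalization, and 0.051 and 0.068 with the adult arrays alone.

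None of the 8 BBS genes passed in limma. An unadjusted p under 0.05 was found for 3 of the 8, and for 5352 of all 17096 genes. Of the 6 genes of BBS coat subunits, Bbs9 read 6.84 and 6.72 in luminal against 6.30 and 6.43 in basal arrays (0.42 ± 0.11, limma adjusted p = 0.0590). Bbs4 read 6.60 and 6.44 against 6.09 and 6.12 (0.41 ± 0.13, limma adjusted p = 0.0907), and Bbs2 6.71 and 6.79 against 6.24 and 6.66 (0.30 ± 0.18). In each of these both luminal arrays lay above both basal arrays, as they did in 46.5% of all genes above background. Bbs5 (0.51), Bbs1 (0.15) and Bbs7 (-0.06) lay below background, as did Bbs10 (-0.15) and Bbs12 (-0.11), whose products help to assemble the coat.

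**Figure D4:**
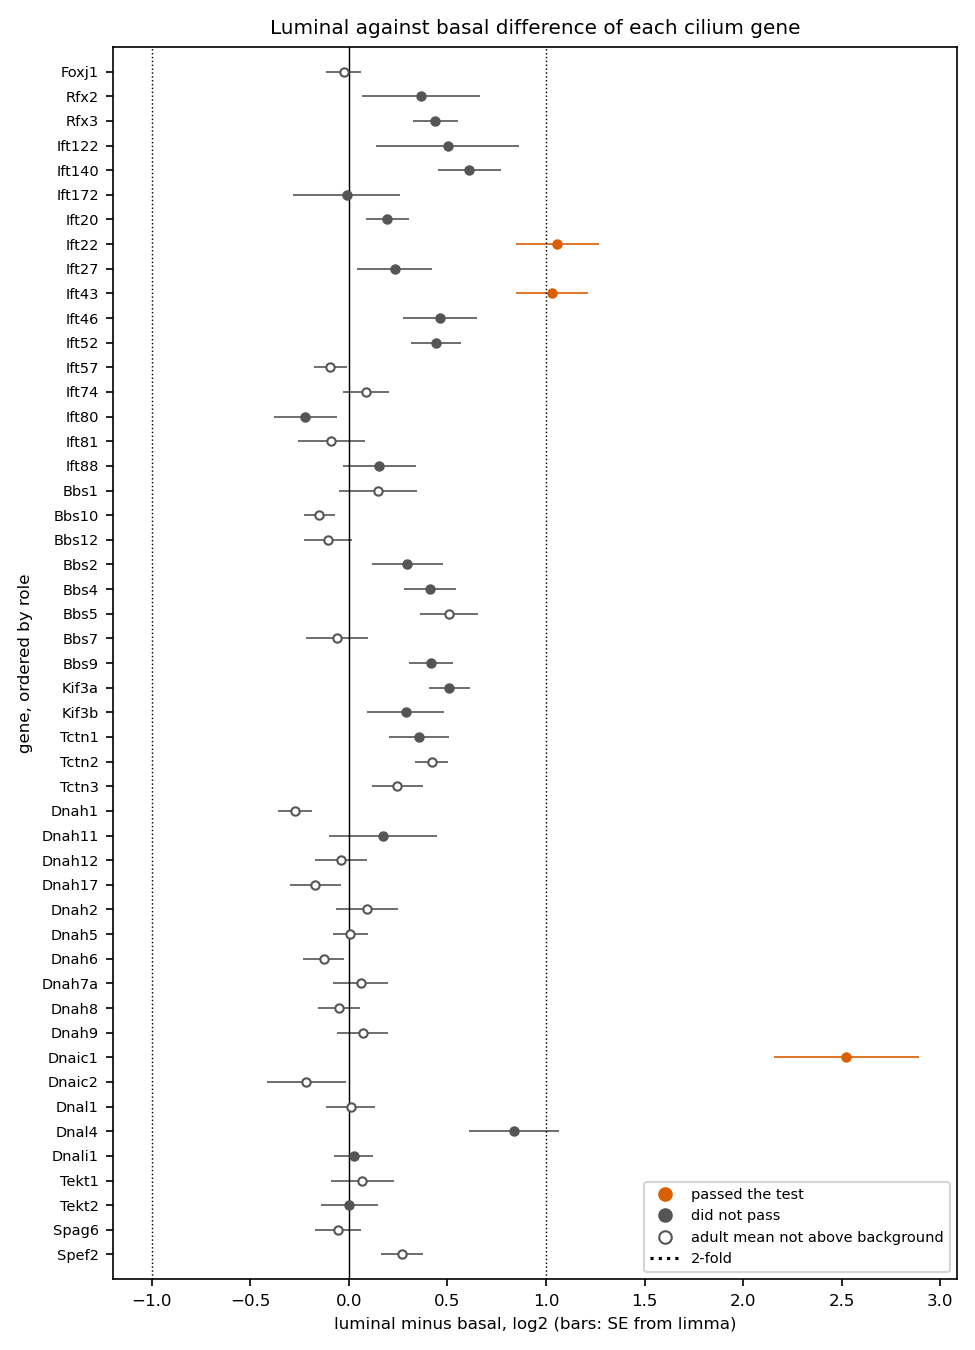
Luminal minus basal log2 difference (horizontal axis) of each of the 49 genes, ordered by role; bars are standard errors from limma (n = 2 and 2 arrays), dotted lines mark 2-fold, and open points have an adult mean not above background. Dnaic1 (2.52), Ift22 (1.06) and Ift43 (1.03) lie right of the 2-fold line, and the heavy chain genes lie between -0.27 and 0.17.

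Cilium genes outside the rule were counted from lists of 117 measured genes, of which 1 passed: Plk4, a kinase gene of centriole duplication, at 6.13 and 6.11 in luminal against 5.14 and 4.96 in basal arrays (1.06 ± 0.26, limma adjusted p = 0.0473). Both basal arrays and the adult mean of Plk4 lay below background, and with basal arrays set to the background level luminal cells were at least 1.16-fold higher. With the gene's second highest probe set the difference was 0.13, and Plk4 did not pass with any adult array left out. Over these genes the median difference was 0.06 and 59.8% of differences were above 0, against 53.9% of all genes. Plk4 was the 1 of 18 basal body and centriole genes that passed (list median 0.21), where 5.49% of all genes passed in either direction. Mitotic genes lay on the luminal side as given above, and their part in the Plk4 difference was not tested. The median was 0.44 over 12 partners of the BBS coat, with Bbip1 at 0.65 and Arl3 at -0.09. None of the 12 passed, while 2 had a limma adjusted p under 0.05 and 5 an unadjusted p under 0.05. The median was 0.14 over 19 IFT adaptors and motor subunits, with Dynlrb1 at 0.33 and Dynll1 at -0.20. None of the 19 passed, while 3 had a limma adjusted p under 0.05 and 9 an unadjusted p under 0.05. Over 18 transition zone genes the median was -0.07 (0 passed, 3 with an unadjusted p under 0.05), with Rpgrip1 at -0.02 and Tmem216 at -0.08.

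Lists for motile cilia had no gene that met both criteria. The median was 0.06 over 27 other axonemal genes, 23 of them below background on all 4 adult arrays. Of the 27, 1 had a limma adjusted p under 0.05 and 5 an unadjusted p under 0.05. The highest difference among them was 0.75, under 2-fold, with Gas8 at 0.31 and Ribc1 at -0.15. The median was -0.03 over 10 dynein assembly genes, with Ruvbl2 at 0.07 and Ruvbl1 at -0.33. Of these, 2 had a limma adjusted p under 0.05 and 3 an unadjusted p under 0.05. The median of the next list is given in the same way. It was 0.00 over 13 regulators of multiciliation and RFX genes (4 with an unadjusted p under 0.05 in limma), with Rfx5 at 0.90 ± 0.26 and Rfx1 at 0.69 ± 0.19. It was 0.02 over 11 markers of multiciliated cells (3 with an unadjusted p under 0.05), 9 of which were below background on all 4 adult arrays; Tppp3 (-0.06) and Ccdc153 (0.02) were not. The summed intensity of those 11 markers was 8.77 to 8.93 in luminal and 8.76 to 8.79 in basal arrays on the log2 scale. Markers of hormone receptor positive luminal cells lay on the luminal side, with a median of 1.73. Of these 5 of 7 passed as higher in luminal cells, where 2.87% of all genes did. Luminal markers (5 of 10, median 0.93) and mitotic genes (6 of 19, median 0.67) lay on the same side. Foxa1 of the hormone receptor positive list was below background in both basal arrays. It was at least 2.53-fold higher in luminal cells (fitted difference 2.71 ± 0.25, limma adjusted p = 0.00636). Leukocyte markers had a median of -0.23 (0 of 14 passed in limma, 3 with an unadjusted p under 0.05). The part of these cell types in the Dnaic1 difference was not tested. In sorted bulk cells, a larger share of cells with a transcript and more transcript per cell cannot be told apart.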

How the data were processed

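Amplified RNA of sorted cells was read on Affymetrix arrays. The authors deposited probe set intensity on a linear scale; RMA and affy appear in the submitters' processing notes, while versions and settings are not given in the sources used here. Protocol text of the adult samples describes the embryonic preparation. Log2 of each intensity was taken here. Of 45141 rows, 4 without values and 104 controls were left out. The platform annotation gave 1 symbol for 28895 of 45033 probe sets, several for 551 and none for 15587. Each of 17096 genes was represented by its brightest probe set, by mean log2 over the 7 arrays; the 49 genes had 79 probe sets. Limma 3.58.1 (R 4.3.3) fitted 3 group means over 7 arrays (4 residual degrees of freedom, prior 2.29), so that tied embryonic values enter the pooled spread. On simulated data for this comparison, with 100 of 17096 genes changed at each size, 74% of those at 1.5 and 98% of those at 3 (log2) were recovered, and 2 of 174 calls were false. Noise was simulated independently for each array, without tied embryonic values, so these rates need not hold for the data. No change smaller than 1.5 was simulated, and the differences of Ift22 and Ift43 are smaller. The small number of arrays limits precision.

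The genes and lists were chosen with earlier results of these data known. Named genes were those that passed, up to 3 others per role by highest level, and per list up to 3 that passed per direction and 2 that did not. Others were named, after their values were seen, to account for every member, as overlapping genes or as IFT-A subunits. Lists covered related cilium genes and basal, luminal, hormone receptor positive, multiciliated, fibroblast, endothelial, leukocyte and mitotic markers. Alternatives covered probe set choice, dim genes, scaling, an offset, the variance prior, array weights, fold minimum, groups fitted, a replicate block and each adult replicate left out; another background percentile was added after seeing the data. Python 3.11.15 and matplotlib 3.10.9 drew the figures.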

Additional observations from a re-analysis of the deposited data

How the results depend on the processing

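Of the 49 genes, 3 passed in limma; 1 passed with quantile normalization, median centring or the offset, 5 without a fold minimum, and 0 to 2 with 1 adult array left out, where 11 to 15 had an unadjusted p under 0.05, the spread of the lone array being taken from the other groups. Under the scaling and offset alternatives Ift22 (0.95 to 1.00) and Ift43 (0.89 to 0.97) fell just under 2-fold. Over all genes 939 passed, with 583 for the offset, 605 with array weights, 1839 at 1.5-fold, 2223 without a fold minimum and 60 to 377 with 1 array left out. Of the 117 related genes 1 passed; 0 did with the second highest probe set, quantile normalization, median centring, the offset or any array left out, 4 at 1.5-fold and 10 without a fold minimum. The gene that passed was Plk4, but it was B9d1 in place of Plk4 with the mean of all probe sets, where Plk4 was at 0.60, and with genes above background only, where Plk4 was not tested. In the adult arrays alone both passed, 2 in all. The cause of these changes was not tested beyond what each setting alters. With the replicate number as a block (adult arrays alone), 3 of the 49, 1208 of all and 2 related genes passed. Deviations of same-numbered arrays correlated at 0.079 over all genes and 0.155 over genes above background; with 2 pairs, from different mouse lines, this does not settle whether the numbers pair the arrays. Differences changed sign under at least 1 alternative in 25 of the 51 genes followed (the 49, Plk4 and B9d1), none of which had passed. With the second highest probe set the difference became -0.014 for Rfx2, 0.076 for Ift80, 0.061 for Ift81, 0.19 for Bbs10, -0.013 for Dnah2, -0.073 for Dnah9, 0.040 for Dnaic2 and -0.12 for Spef2. With the mean of all probe sets the difference became 0.063 for Ift81, 0.022 for Bbs10 and -0.0019 for Dnah9. With quantile normalization the difference became -0.073 for Dnali1 and -0.085 for Tekt2. With median centring the difference became -0.051 for Dnah5, -0.050 for Dnal1, -0.035 for Dnali1 and -0.057 for Tekt2. With 1 adult array left out, the difference spanned 0 for Ift88 (-0.055 to 0.37), Bbs7 (-0.27 to 0.14), Dnah2 (-0.048 to 0.23), Dnal1 (-0.16 to 0.18), Dnali1 (-0.029 to 0.077), Tekt2 (-0.14 to 0.15), Spag6 (-0.17 to 0.064), Foxj1 (-0.080 to 0.027), Ift172 (-0.43 to 0.41), Ift81 (-0.35 to 0.17) and Dnah11 (-0.062 to 0.41). It also did so for Dnah5 (-0.058 to 0.073), Dnah7a (-0.077 to 0.20), Dnah8 (-0.18 to 0.076), Dnah9 (-0.11 to 0.25), Ift27 (-0.057 to 0.52), Bbs12 (-0.23 to 0.014), Dnah12 (-0.16 to 0.080), Rfx2 (-0.079 to 0.81), Ift74 (-0.017 to 0.19) and Bbs1 (-0.027 to 0.32). With background at the 90th percentile (5.66), 27 of 49 genes lay above it.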

Other observations

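Of the 30 further probe sets of the 49 genes, 6 lay above background, and all 6 gave a difference of the same sign as the probe set used. The dim probe sets of Kif3b gave larger luminal minus basal differences, 0.97 and 0.89, than its brighter ones, 0.29 and 0.09. B9d1, a transition zone gene, read 8.09 and 8.20 in luminal and 6.86 and 7.35 in basal arrays, and its difference of 1.04 ± 0.28 missed the threshold (limma adjusted p = 0.0576). Ift122, Ift140, Ift74, Tctn1 and Dnah17 also overlap a protein-coding gene in the gene table (Mbd4, Tmem204, Lrrc19, Hvcn1 and Pgs1). The part of those genes in their signal was not tested.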
